A study of Mus musculus with 3 samples.

Results

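The 10 genes of excitation and calcium handling in skeletal muscle, Cacna1s, Cacng1, Jph1, Ryr1, Trdn, Casq1, Casq2, Atp2a1, Atp2a2 and Pvalb, were followed in C2C12 cells, mouse myoblasts that leave the cell cycle and form myotubes in low serum. They were chosen by name, every probe that carries the name was taken, and each had a single probe, so the 10 members were 10 of 23473 probes and 10 of 18356 gene names on the array. The parental cells were grown for 2 days in DMEM with either 10% fetal bovine serum (C2C12-PR) or 2% horse serum (C2C12-DF). C2C12-W4-08 was grown like C2C12-PR and is a single clone, selected with blasticidin after transfection of a plasmid that drives tagged Wnt4 from the CMV promoter, so that clone and transgene cannot be told apart. Wnt4 itself was not detected in C2C12-PR, read 4.63 in C2C12-DF and read 115 in the clone. Each condition was measured on 1 array, the methods name Isogen for the RNA and the labels the miRNeasy Mini Kit, and no difference below has a replicate check or a p-value.

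In skeletal muscle an action potential enters the cell along the transverse tubules and moves the L-type calcium channel, which opens the ryanodine receptor of the sarcoplasmic reticulum at junctions called triads. Calcium stored on calsequestrin then leaves the reticulum and starts contraction, and it is taken up again by the calcium pumps of the SERCA family. Myoblasts have no triads, and this apparatus is built up while they become myotubes.

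The deposited scanner intensities were turned into a normalized signal, which is the spot median minus the mean of the blank spots, scaled so that the median probe has a ratio of 1 to C2C12-PR and the median signal of C2C12-PR is 25. A probe was not detected where its spot lay below the blank mean plus 2 SD, which placed the lowest detected signal at 2.35 in C2C12-DF, 2.72 in C2C12-PR and 0.697 in C2C12-W4-08. The share of probes detected ran from 71.8% to 92.8% and was highest in C2C12-W4-08, the array with the dimmest blank spots. Spots of 3 positive controls of unstated identity lay within 0.21 of C2C12-PR in C2C12-DF, on the log2 scale, but at 1.12, -0.57 and -0.84 in C2C12-W4-08. The range given with a ratio is what results when both spots move by 2 SD of the blank spots, so it covers noise near the background only. Where both signals of a pair can be moved onto each other in this way, they are said to lie within the blank range.

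In C2C12-DF, of the 9 members that both arrays detected, 4 were at least 2-fold brighter than in C2C12-PR, against 4.91% of all probes, and 0 were at least 2-fold dimmer, against 4.54%. The 4 brighter ones were Casq2 with 29.5-fold, Ryr1 with 8.12-fold, Atp2a1 with 6.74-fold and Cacng1 with 2.10-fold. Casq1 came on top of them, since it was not detected in C2C12-PR and was at least 7.74-fold brighter in C2C12-DF. The median log2 ratio of the 9 members was 0.96, where the median of all probes is 0 by scaling and their 5th and 95th percentiles were -0.96 and 0.99. Another background model, normexp, was fitted here to spot and local background with an offset of 50. With normexp 1 of the 9 was at least 2-fold brighter, against 1.22% of all probes, and the median was 0.44. Trdn and Atp2a2 were under 2-fold here and in each alternative run, and Pvalb, Jph1 and Cacna1s were under 2-fold as reported but past it in 1, 3 and 4 of 11 alternatives.

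All 10 members had their highest signal in C2C12-DF as reported, but not under each alternative. With the 75th percentile of the detected probes set equal, Trdn, Jph1 and Atp2a2 were brightest in C2C12-W4-08. In the unscaled deposited table of processed signals Trdn and Jph1 were narrowly brightest in C2C12-W4-08, and Pvalb was brightest in C2C12-PR. Atp2a2 was brightest in C2C12-PR with the local background subtracted and with normexp. By measured signal C2C12-W4-08 was last for 7 of the 10 members. With the 75th percentile set equal, however, Ryr1, Cacng1 and Atp2a2 were no longer lower there than in C2C12-PR, and for Ryr1 these arrays lay within the blank range. C2C12-W4-08 came second for Trdn, and for Jph1 and Casq1 the order of C2C12-W4-08 and C2C12-PR cannot be read. A fold of 2 is used here as a mark of size and not as a test. The members were chosen with earlier results of these data known, so their counts describe these 10 genes and no other list.

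**Figure D1:**
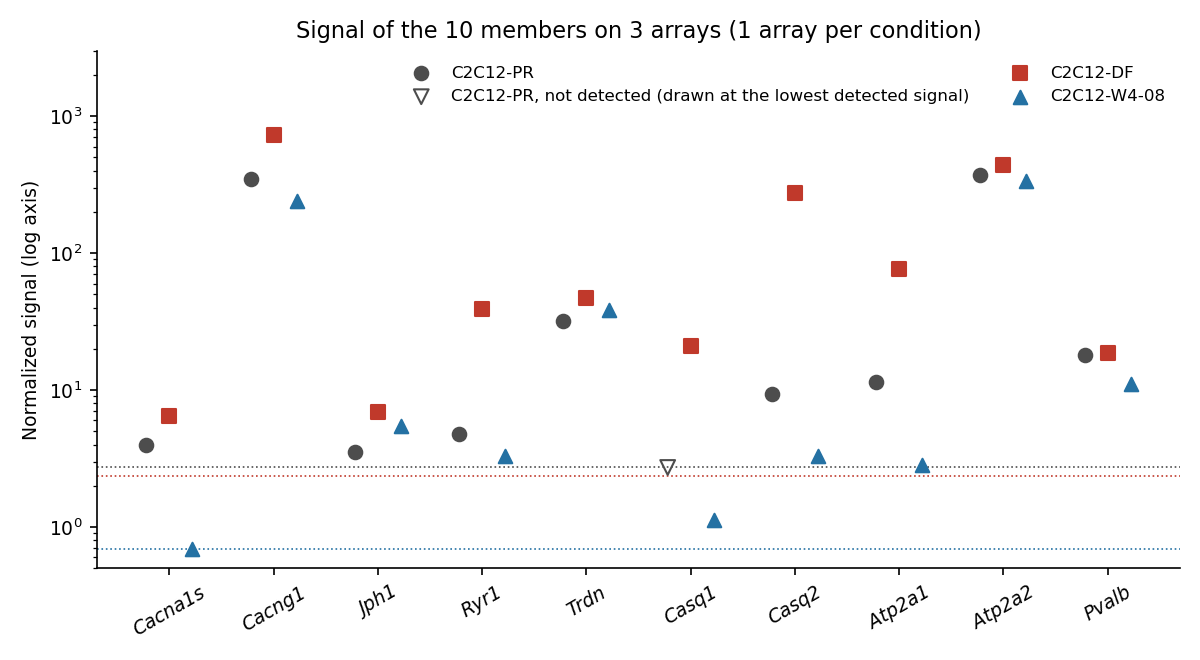
Normalized signal (log axis) of each member on the arrays of C2C12-PR (circles), C2C12-DF (squares) and C2C12-W4-08 (triangles), 1 array per condition, with dotted lines at the lowest detected signal of each array and an open symbol where a probe was not detected. As plotted, the C2C12-DF symbol is the highest of its gene for all 10 members (other scalings and backgrounds move Trdn, Jph1, Atp2a2 and Pvalb), and 6 members lie under a signal of 10 in C2C12-W4-08.

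The voltage sensor of the triad is Cacna1s, the pore-forming subunit of the skeletal L-type calcium channel. Its probe gave a signal of 6.46 in C2C12-DF, 3.96 in C2C12-PR and 0.697 in C2C12-W4-08. The first and the second of these lay within the blank range, with a log2 ratio of 0.71, a range from -0.51 to 2.47 and a value of up to 1.60 with the local background subtracted. The last is the lowest signal that could be detected on that array, a spot of 6 scanner units over a blank mean of 4.38, and its log2 ratio of -2.51 had a range from -10.35 to -0.14. With normexp the ratio of Cacna1s in C2C12-W4-08 was 0.14 on the log2 scale.

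Cacng1 encodes the gamma subunit of the same channel, and its probe was bright on all 3 arrays. The signal was 724 in C2C12-DF, 346 in C2C12-PR and 239 in C2C12-W4-08. In C2C12-DF this is a log2 ratio of 1.07, just past 2-fold, and normexp left it at 0.83. The log2 ratio in C2C12-W4-08 was -0.53, and it was 0.028 with the 75th percentile of the detected probes set equal between arrays and -1.25 after normexp, so its direction there depends on the scaling.

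Jph1 encodes junctophilin 1, which ties the reticulum to the transverse tubule. Its signals were 6.92 in C2C12-DF, 3.55 in C2C12-PR and 5.44 in C2C12-W4-08. From high to low the order was C2C12-DF, C2C12-W4-08 and C2C12-PR, but neighbours in it lay within the blank range, and the log2 ratios of 0.96 and 0.62 had ranges from -0.28 to 3.0 and from -0.34 to 2.46. No order of the arrays can be read for this gene at this brightness.

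Ryr1 is the ryanodine receptor of skeletal muscle, the channel through which calcium leaves the reticulum. Its signal was 38.9 in C2C12-DF, 4.79 in C2C12-PR and 3.28 in C2C12-W4-08, or 103, 32 and 12 scanner units before the blank spots were subtracted. C2C12-DF stood apart, with a log2 ratio of 3.02 and a range from 2.35 to 4.12, which is rank 49 from the top among 15917 probes. C2C12-PR and C2C12-W4-08 lay within the blank range, with a log2 ratio of -0.54 that was 0.0157 with the 75th percentile set equal. Normexp brought the ratio in C2C12-DF to 0.95, still higher but under 2-fold.

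Trdn encodes triadin, which holds calsequestrin near the release channel in the membrane of the reticulum. Its signals of 46.6 in C2C12-DF, 32.0 in C2C12-PR and 38.2 in C2C12-W4-08 stood close to each other. The log2 ratios were 0.54 and 0.25, and the second was -0.04 when each print block was centred and -0.13 after normexp. Triadin RNA was therefore within 2-fold on the 3 arrays.

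Calsequestrin is the calcium-binding protein inside the reticulum, with Casq1 as the form of fast skeletal fibres and Casq2 as the form of heart and slow fibres. The Casq2 probe read 275 in C2C12-DF, 9.32 in C2C12-PR and 3.28 in C2C12-W4-08. With a log2 ratio of 4.88, a range from 4.54 to 5.33 and rank 17 from the top, it had the highest measured ratio of the members in C2C12-DF, and with the local background subtracted Casq1 was above it, at 5.72 against 5.0. With normexp it was at 2.46, and the local background around its spot in C2C12-DF was 360 scanner units for a spot of 620. In C2C12-W4-08 it was 2.84-fold lower than in C2C12-PR, with a log2 ratio of -1.51 and a range from -2.18 to -0.79, but 0.028 after normexp.

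The Casq1 spot in C2C12-PR read 21 scanner units over a blank mean of 20.4 and was not detected. It gave 21.1 in C2C12-DF, and the C2C12-W4-08 spot gave 1.13. The bound of at least 7.74-fold for C2C12-DF is set against the lowest detected signal of C2C12-PR. The C2C12-W4-08 signal is under that lowest signal too, so no ratio is given, and the order of C2C12-PR and C2C12-W4-08 is not known for this gene. Both calsequestrin genes were thus brighter in C2C12-DF than on the other arrays.

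Atp2a1 encodes SERCA1, the calcium pump of fast fibres, and Atp2a2 encodes SERCA2, the pump of heart and slow fibres that many other cells also express. Atp2a1 gave 76.8 in C2C12-DF, 11.4 in C2C12-PR and 2.85 in C2C12-W4-08. The log2 ratio of 2.75 in C2C12-DF had a range from 2.44 to 3.14 and rank 63 from the top, and normexp reduced it to 0.98. In C2C12-W4-08 it was 3.99-fold lower, with a log2 ratio of -2.00, a range from -2.68 to -1.34 and rank 390 from the bottom among 16682 probes. Of the 3 members that were at least 2-fold lower in that clone, Atp2a1 alone kept its sign under normexp, at -0.35.

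The signals of Atp2a2 lay closer together, with 436 in C2C12-DF, 369.9 in C2C12-PR and 335 in C2C12-W4-08. Its log2 ratios were 0.24 and -0.14, and both turn with the processing, to -0.37 after normexp in C2C12-DF and to 0.42 with the 75th percentile set equal in C2C12-W4-08. Of the SERCA pair, the pump of fast fibres differed by more than 2-fold between arrays and the widely expressed one did not.

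Pvalb encodes parvalbumin, a soluble calcium buffer of fast fibres. Its signal was 18.8 in C2C12-DF, 18.0 in C2C12-PR and 11.0 in C2C12-W4-08, with log2 ratios of 0.063 and -0.70. C2C12-DF and C2C12-PR lay within the blank range. The local background around this spot was 52 scanner units in C2C12-PR for a spot of 64, and with the local background of each spot subtracted instead the ratios became 1.49 and 0.65. The values of Pvalb therefore depend on the background that is taken, in size for C2C12-DF and in direction for C2C12-W4-08.

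**Figure D2:**
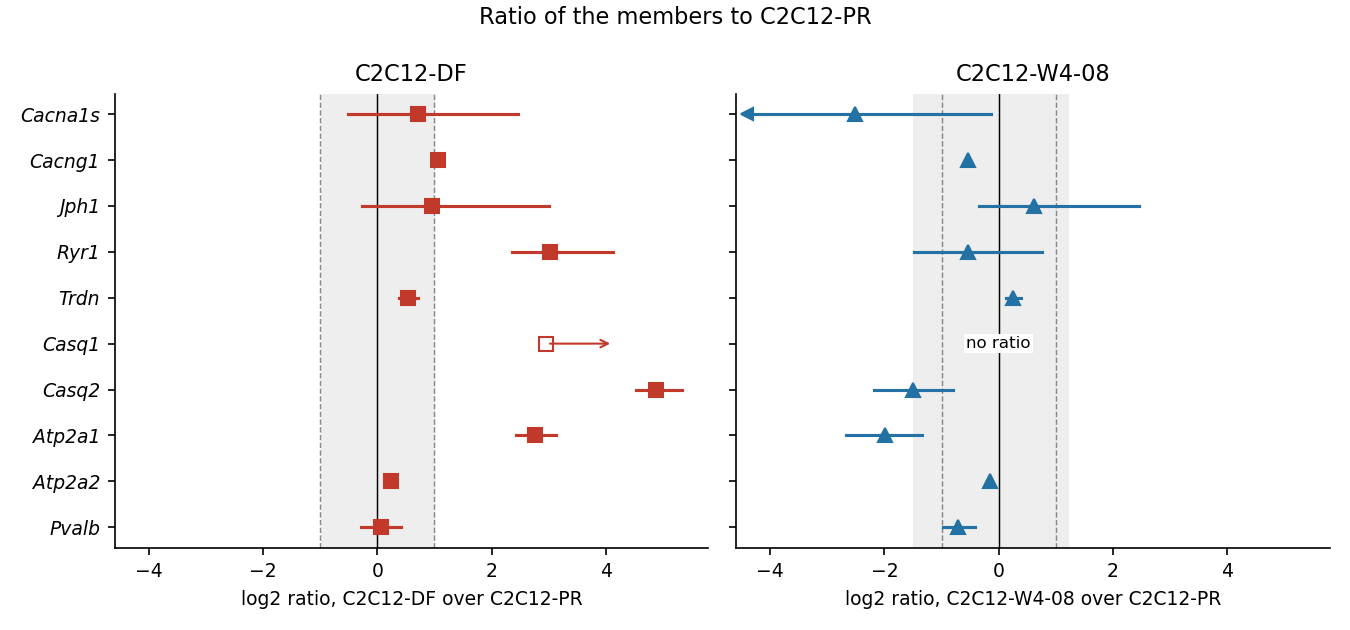
Log2 ratio of each member to C2C12-PR in C2C12-DF (left, squares) and C2C12-W4-08 (right, triangles), with lines for the range when both spots move by 2 SD of the blank spots, an open square and arrow for a lower bound, a grey band from the 5th to the 95th percentile of all probes and dashed lines at 2-fold. Casq2, Ryr1, Casq1, Atp2a1 and, narrowly, Cacng1 lie beyond the band in C2C12-DF. In C2C12-W4-08 Atp2a1, Cacna1s and, narrowly, Casq2 lie below it, and the range of each of these reaches into the band.

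In C2C12-W4-08, of the 9 members that both arrays detected, Cacna1s, Atp2a1 and Casq2 were at least 2-fold dimmer than in C2C12-PR, so 3 of 9 against 11.0% of all probes. None was at least 2-fold brighter, against 8.55%. The median log2 ratio was -0.54 and 7 of the 9 were below 0, but the median was 0.0157 with the 75th percentile set equal and 0.028 after normexp. The median of all probes was 0.56 with the 75th percentile set equal, still above that of the members, and 0 after normexp. The probes of Cacna1s, Atp2a1 and Casq2 read 6, 11 and 12 scanner units in C2C12-W4-08, so a step of 1 unit is a large part of their signal. Both comparisons use the same C2C12-PR array, so a deviation of that array enters both.

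Position on the array moved with some of these values. Atp2a1 and Casq2 sit in the same print block, whose median log2 ratio over all its probes was -0.32 in C2C12-W4-08 and -0.08 in C2C12-DF. Cacna1s and Pvalb share another block, with -0.38 and -0.24, and the block of Ryr1 was at 0.44 in C2C12-W4-08. With each block centred on its own median, Atp2a1, Casq2 and Cacna1s were at -1.68, -1.19 and -2.12 in C2C12-W4-08, so all 3 remained at least 2-fold lower.

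The windows around the transcription start are shown for the 4 members with the largest ratios or bounds in C2C12-DF, the ones on which that comparison turns. They are 300 bases long, 250 before and 50 after the start, from RefSeq on GRCm38.p6, where 6 of the 10 members had a window. The windows lie at chr3:102086165-102086464 on the plus strand for Casq2, and at chr1:172219846-172220145, chr7:126463024-126463323 and chr7:29125102-29125401 on the minus strand for Casq1, Atp2a1 and Ryr1. Capitals mark matches to the E-box CANNTG, the motif bound by MyoD and myogenin, and to the MEF2 consensus, searched on both strands.
Casq2: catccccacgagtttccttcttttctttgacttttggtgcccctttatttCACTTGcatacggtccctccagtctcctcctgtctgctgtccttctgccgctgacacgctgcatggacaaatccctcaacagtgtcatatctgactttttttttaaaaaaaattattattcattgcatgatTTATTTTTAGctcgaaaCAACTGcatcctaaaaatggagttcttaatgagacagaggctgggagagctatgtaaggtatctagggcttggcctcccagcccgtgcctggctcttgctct
Casq1: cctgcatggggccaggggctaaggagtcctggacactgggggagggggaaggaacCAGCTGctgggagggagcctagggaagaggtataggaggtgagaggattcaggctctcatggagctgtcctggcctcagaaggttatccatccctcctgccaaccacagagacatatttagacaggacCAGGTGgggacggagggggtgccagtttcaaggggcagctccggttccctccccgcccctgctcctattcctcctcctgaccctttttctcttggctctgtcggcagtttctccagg
Atp2a1: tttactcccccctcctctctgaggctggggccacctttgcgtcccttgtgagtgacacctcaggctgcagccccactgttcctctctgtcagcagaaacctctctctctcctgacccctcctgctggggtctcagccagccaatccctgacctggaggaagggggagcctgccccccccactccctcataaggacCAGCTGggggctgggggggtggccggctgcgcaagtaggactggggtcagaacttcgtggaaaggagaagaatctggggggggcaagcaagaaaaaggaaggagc
Ryr1: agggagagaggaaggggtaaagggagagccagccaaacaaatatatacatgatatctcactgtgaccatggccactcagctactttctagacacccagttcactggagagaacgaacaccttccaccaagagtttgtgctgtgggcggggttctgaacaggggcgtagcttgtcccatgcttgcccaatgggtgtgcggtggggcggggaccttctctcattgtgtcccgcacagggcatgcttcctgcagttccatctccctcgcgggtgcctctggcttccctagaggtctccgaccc

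The Casq2 window holds the E-boxes CACTTG, 200 bases upstream, and CAACTG, 52 bases upstream, and between them a MEF2 match 69 bases upstream. The Casq1 window holds CAGCTG and CAGGTG, 195 and 67 bases upstream. In the Atp2a1 window there is a single E-box, CAGCTG, 55 bases upstream, and the Ryr1 window has no match to either motif. An E-box of any kind is in 72.3% of 32851 such windows, CAGCTG in 16.3% and the MEF2 consensus in 3.19%. Pvalb, the other member with a MEF2 match, lay within the blank range in C2C12-DF.

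Other genes of the pathway were taken from a list of 97 in 7 roles, of which 92 had a probe. In C2C12-DF, 14 of the 70 with a ratio were at least 2-fold brighter and 3 at least 2-fold dimmer, with a median log2 ratio of 0.25. The dimmer share, 4.29%, was near the 4.54% of all probes. In C2C12-W4-08, 10 of 76 were brighter, against 8.55% of all probes, and 7 dimmer, against 11.0%, with a median of -0.057. With the 75th percentile set equal these became 20 and 0 with a median of 0.50. At that setting 27.0% of all probes were brighter and 4.66% dimmer, with a median of 0.56. The balance there thus depends on the scaling, for all probes as for these genes. The share of brighter genes in C2C12-DF, 20%, stood above the 4.91% of all probes, as did that of the members.

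Among the partners of the L-type channel, 4 of 12 were at least 2-fold brighter in C2C12-DF, against 4.91% of all probes. None of the 12 was at least 2-fold dimmer, against 4.54%. Stac3, the adaptor that couples this channel to Ryr1, went from 14.7 to 98.3 and was 12.8 in C2C12-W4-08. Cacnb1, the beta subunit of the same complex, went from 25.8 to 117 and was 15.8 in C2C12-W4-08. Both genes were brightest in C2C12-DF, and for Stac3 the other arrays lay within the blank range. Cacna2d1, the alpha-2/delta subunit, was higher in both, at log2 ratios of 1.44 and 1.10. Atp1b1, the beta subunit of the sodium pump, was under 2-fold in C2C12-DF at a log2 ratio of 0.96 and stood at 2.67 in C2C12-W4-08.

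Of the genes of triad and tubule structure, 4 of 9 were at least 2-fold brighter in C2C12-DF, against 4.91% of all probes. Tmem38a, the counter-ion channel TRIC-A of the reticulum, went from 18.4 to 100.1, and Jph2, the second junctophilin of striated muscle, from 27.9 to 65.8. The gene Dysf, which encodes the membrane repair protein dysferlin, had a log2 ratio of 2.23. Tmem38b, the related TRIC-B and the last of the 4, was named after its value was seen and had one of 1.19. Outside these 9, Cav3, the caveolin of muscle, was not detected in C2C12-PR and was at least 1.52 higher on the log2 scale. The member of this role, Jph1, was too dim to tell. The log2 ratio of Jph2 in C2C12-W4-08 was -0.90, and Jph4 and Mtm1, which encodes the lipid phosphatase myotubularin, were at 1.24 and 2.98.

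Against 4.91% of all probes, 2 of 8 genes around the release channel were at least 2-fold brighter in C2C12-DF. They were Fkbp1b, a ryanodine receptor-binding immunophilin, at a log2 ratio of 1.76, and S100a1, a calcium sensor, at 1.11. Ryr2, the receptor of heart, read 4.37 in C2C12-PR and was not detected on the other arrays. For this gene C2C12-PR and C2C12-DF lay within the blank range. Asph, whose locus also encodes junctin, a relative of triadin, stood at 0.53 on the log2 scale in C2C12-DF.

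For the stores of the reticulum, 2 of 9 genes were at least 2-fold brighter in C2C12-DF, against 4.91% of all probes, and 1 was dimmer, against 4.54%. Srl, which encodes sarcalumenin, stood at 4.12 there on the log2 scale, with signals of 97.4 in C2C12-DF, 5.61 in C2C12-PR and 1.99 in C2C12-W4-08. Hrc, the histidine-rich calcium-binding protein, went from 10.1 to 101 and was 14.5 in C2C12-W4-08. Both are proteins of the muscle reticulum, as the calsequestrins are. Calr, the calcium store protein of the general endoplasmic reticulum, went the other way, from 646 to 299, a log2 ratio of -1.11. The log2 ratio of the chaperone gene Hspa5 was -0.28 in C2C12-DF against 1.49 in C2C12-W4-08, and that of the calcium-binding S100a6 was 0.97 and 0.99.

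Of the pumps, exchangers and their regulators, 1 of 8 was at least 2-fold brighter in C2C12-DF, against 4.91% of all probes. This gene, Mrln, which encodes the SERCA inhibitor myoregulin and is named 2310015B20Rik on the array, read 197 in C2C12-DF, 46.0 in C2C12-PR and 20.9 in C2C12-W4-08. It follows the order of Atp2a1, with log2 ratios of 2.10 and -1.14. Pln and Atp2a3, the inhibitor phospholamban and the third SERCA, read 3.55 in C2C12-PR and were not detected in C2C12-DF. Slc8a2, a sodium-calcium exchanger, read 4.79 in C2C12-PR and was not detected in C2C12-DF either. These signals are dim, near the lowest detected signal of C2C12-PR, 2.72.

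Store-operated entry, by which cells refill the reticulum from outside, had 0 of 7 genes past 2-fold in either direction in C2C12-DF. Of all probes 4.91% were at least 2-fold brighter there and 4.54% dimmer, so 0 of 7 does not set this role apart. Stim1, its sensor in the reticulum, had a log2 ratio of 0.71, the channel gene Orai3 one of 0.26 and the scaffold gene Homer1 one of -0.59. Orai2 was not detected in C2C12-PR and read 4.63 in C2C12-DF and 8.88 in the clone. Of the calcium-dependent enzymes, 1 of 17 was at least 2-fold brighter, Rcan2 at a log2 ratio of 1.36. At 5.88% this is near the share of all probes. Dimmer were 2 of 17, the protease gene Capn1 at -1.25 and the kinase gene Mylk2 at -1.02. Log2 ratios in C2C12-W4-08 put Capn1 at -1.25 again, Capn3 at -1.08, and the calcineurin subunit gene Ppp3ca and its target Nfatc3 at 1.47 and 1.05.

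**Figure D3:**
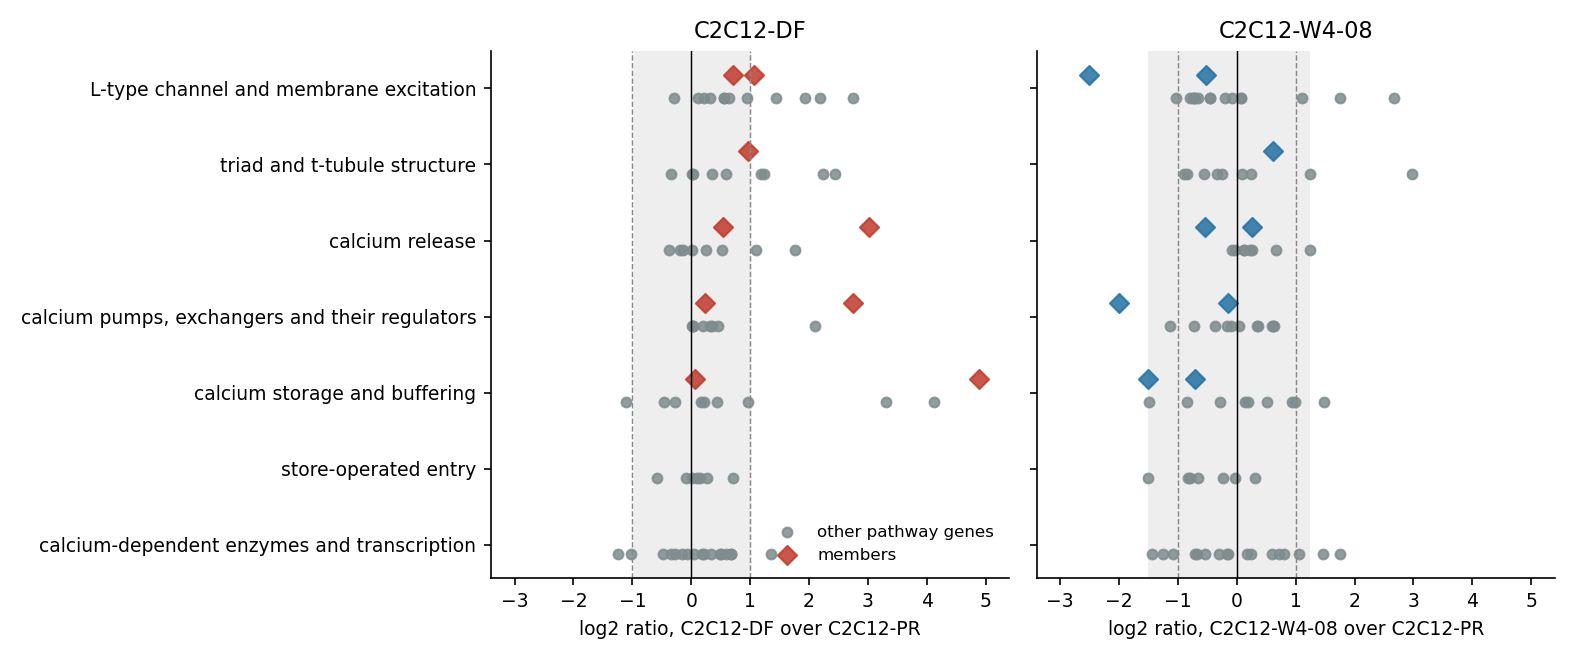
Log2 ratio to C2C12-PR of the members (diamonds) and the other pathway genes (grey points) detected on both arrays, by role, in C2C12-DF (left) and C2C12-W4-08 (right), with a grey band from the 5th to the 95th percentile of all probes and dashed lines at 2-fold. In C2C12-DF each role except store-operated entry, which has only 7 genes with a ratio, has points past 2-fold.

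Marker genes were set beside the members. The 5 myoblast markers were detected on all 3 arrays, with a summed signal of 14207 in C2C12-DF, 14981 in C2C12-PR and 11064 in C2C12-W4-08. Vim made up most of this sum, and the others went different ways in C2C12-W4-08, with log2 ratios of -2.91 for Cdh15, -1.47 for Myod1, -0.55 for Des and 0.94 for Myf5. The 8 markers of differentiated skeletal muscle summed to 13303, 301 and 335 in the order C2C12-DF, C2C12-PR and C2C12-W4-08, and all 5 that C2C12-PR and C2C12-DF both detected passed 2-fold, higher in C2C12-DF. A larger share of differentiating cells and more RNA per cell cannot be told apart on these arrays. Heart markers, which bear on Casq2 and Atp2a2, summed to 92.7, 92.9 and 77.3, with Myh6 not detected in C2C12-PR or C2C12-DF. Those with a ratio went different ways in C2C12-DF, at -0.42 for Nppb, -1.07 for Gata4, 0.66 for Tnni3 and 0.24 for Nkx2-5 on the log2 scale. The 5 smooth muscle markers summed to 11105, 4243 and 2568, mostly from Acta2. In C2C12-DF the log2 ratios were 1.36 for Acta2, 1.80 for Tagln, 0.52 for Smtn and -1.73 for Cnn1. Myh11 was not detected in C2C12-PR or C2C12-DF. Nerve markers summed to 249, 382 and 65.7, fat markers to 23.6, 56.5 and 122, mostly from Pparg, and bone markers to 14.9, 15.4 and 23.5. Syt1, Adipoq and Ibsp were not detected on any array. The part of these lists in the member ratios was not tested.

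The genes whose pattern lay closest to the median of the members, 0.96 and -0.54, were Rnaset2, Ing4, Cryab, Sdf2 and Cd81. They were 0.0872 to 0.0992 log2 units away, by Euclidean distance over 2 ratios from 3 arrays. Of 4005 candidates, 28 were within 0.25.

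**Figure D4:**
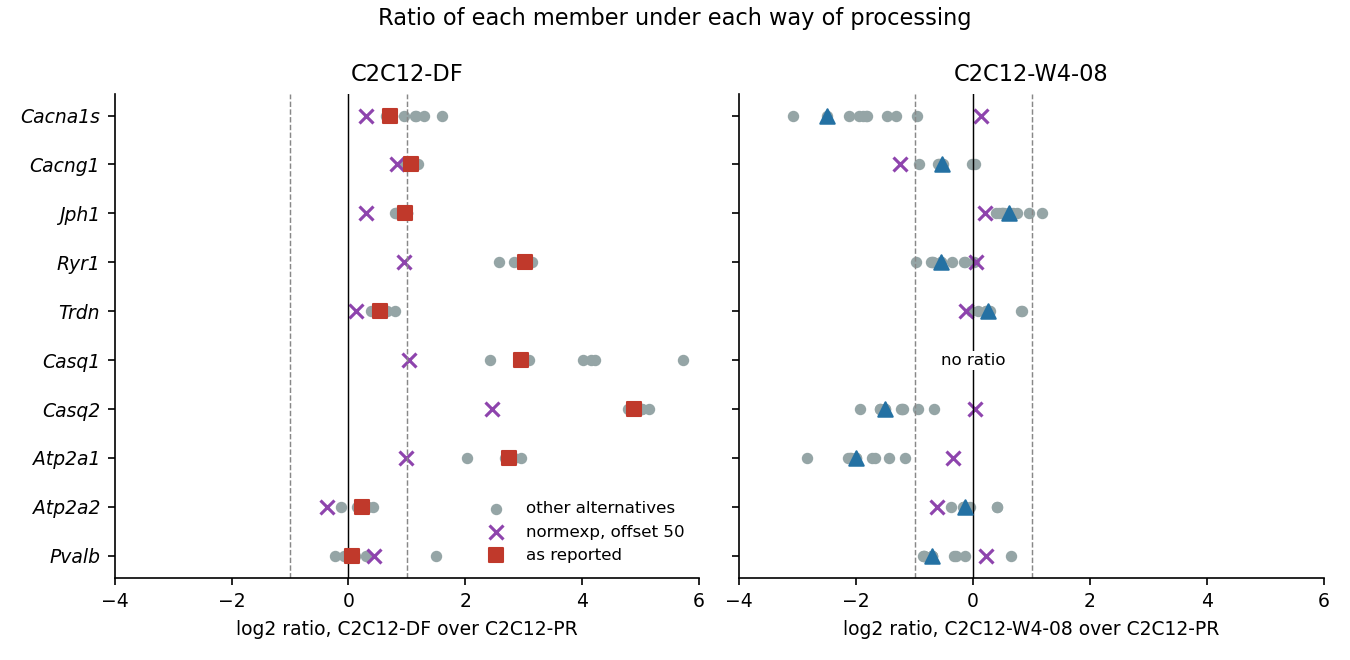
Log2 ratio of each member to C2C12-PR in C2C12-DF (left) and C2C12-W4-08 (right) as reported (filled squares and triangles), with normexp and an offset of 50 (crosses) and under the other alternatives (grey points), with dashed lines at 2-fold. Casq2 runs from 2.46 to 5.14 in C2C12-DF and stays past 2-fold, whereas normexp draws most dim members towards 0.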

How the data were processed

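RNA of the 3 conditions was labelled with Cy5 and hybridised to the Toray 3D-Gene mouse oligo chip, 1 array per condition. The authors deposited the scanner intensities of each array, as spot and local background medians and means, neither subtracted nor scaled. A deposited table of their processed signals, with a median of 25.0 in each column, served as an alternative, and its exact background stays unknown. Scaling to a median ratio of 1 and the limit of background plus 2 SD follow the study's notes, whereas the column medians of 25.0 show that the deposited table itself was scaled array by array. The notes do not name the background, and blank spots were chosen by setting scanner values against that table.

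The mean of 1750 blank spots was subtracted from each spot median, and control spots and 1 spot with a scanner flag were left out. Where 1 array of a pair did not detect a probe, the ratio is a bound against that array's lowest detected signal. A scanner unit equals 0.413, 0.457 and 0.431 of signal on the 3 arrays, which limits dim probes, and the number of arrays limits the precision. Probes carry the names in the files, and all 10 members matched RefSeq symbols. Sequences came from RefSeq on GRCm38.p6, and no protein or probe sequence was used.

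All members are named, then up to 4 genes per role of the pathway list by size of their ratio in C2C12-DF, those at least 2-fold in C2C12-W4-08 with a signal of at least 20, and the 5 genes of closest pattern with a signal of at least 100. A result that this rule would name is not reported here. The members and lists were chosen with earlier results of these data known. Tools were Python 3.11.15, numpy 2.4.6, pandas 2.3.3, statsmodels 0.14.6, and limma 3.58.1 in R 4.3.3. Simulated data of 23473 probes served to test the steps.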

Additional observations from a re-analysis of the deposited data

How the results depend on the processing

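With 1 array a condition no array could be left out, and no paired analysis was possible because no condition has a second array. A total of 12 summary results were recomputed, giving 172 values, of which 136 stayed close and 36 moved. A reversal was called only where the reported log2 value was at least 1 in size. No reported median was that large, so none could be called reversed. Both medians of C2C12-W4-08 did change sign with the 75th percentile set equal, from -0.54 to 0.0157 for the members and from -0.057 to 0.50 for the pathway genes. The median of all probes, 0 as reported, was 0.56 at that setting and so above both. A count stayed close if it was within 1.5 times the reported one, and a median if within 0.235 on the log2 scale. All values from quantile normalization, loess, block centring, detection at 3 SD and the scaled deposited table were that close. The 12 values of the mean over probes, counted in the 136, could hardly move, since each member has 1 probe and only 1 pathway gene has several. Members higher in C2C12-DF still numbered 3 with quantile normalization and 5 with block centring or the scaled table. Members lower in C2C12-W4-08 numbered 2 with loess and with detection at 3 SD. With loess Cacna1s was at -0.96 there.

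For the members in C2C12-DF, normexp left 1 at least 2-fold higher with a median of 0.44, against 4 and 0.96. Of all probes 1.22% were higher there with normexp, against 4.91% as reported. The median of the members was 1.49 with the local background and 1.91 with a minimum signal of 20, which leaves 6 of the 9. In C2C12-W4-08, 1 member was higher with the 75th percentile set equal and 1 at 1.5-fold, against 27.0% and 21.0% of all probes. The members lower there, 3 as reported, were 1 with normexp, 0 with a minimum signal of 20 and 1 at 4-fold. Their median of -0.54 was 0.0157 with the 75th percentile, 0.028 with normexp, -0.14 with a minimum signal of 20 and -0.13 in the unscaled deposited table. After normexp Cacna1s was at 0.14, Casq2 at 0.028 and Srl at 0.00307 in C2C12-W4-08, the reverse of their reported direction.

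Of the pathway genes in C2C12-DF, those higher, 14 as reported, were 6 with normexp, 22 at 1.5-fold and 7 at 4-fold. Those lower, 3 as reported, were 5 with the local background, 1 with the spot mean, 5 with no detection rule, 0 in the unscaled table and 0 at 4-fold. In C2C12-W4-08, those higher, 10 as reported, were 20 with the 75th percentile, 1 with normexp, 22 in the unscaled table, 19 at 1.5-fold and 2 at 4-fold. Those lower, 7 as reported, were 0 with the 75th percentile, 2 with normexp, 13 with the local background, 16 with no detection rule, 3 with a minimum signal of 20, 1 in the unscaled table, 21 at 1.5-fold and 0 at 4-fold. Their median was 0.50 with the 75th percentile and 0.54 in the unscaled table.

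Over all probes, 52.0% of those past 2-fold were higher in C2C12-DF and 43.6% in C2C12-W4-08. These shares were 33.6% and 18.7% with normexp, 70.5% and 85.1% in the unscaled table, and for C2C12-W4-08 85.3% with the 75th percentile and 23.3% with no detection rule. The median of all probes moved to 0.56 in C2C12-W4-08 with the 75th percentile, to 0.14 and 0.57 in the unscaled table, and to -0.21 and -0.17 with no detection rule. Why the values moved was not tested.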
